A study of Homo sapiens with 2 samples.

Results

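The proteasome genes were compared in Caco-2, an epithelial line from a human colorectal adenocarcinoma, between an RNC-mRNA library and an mRNA library. The RNC-mRNA library was made from poly(A) RNA recovered with ribosome-nascent chain complexes, and the mRNA library from poly(A) RNA of the total RNA. The members are all protein-coding (NM) RefSeq records in the table whose symbols begin with PSMA to PSMG and a digit, 48 of 23709 genes. A further 3 symbols of that form, PSMC3IP, PSMG3-AS1 and PSMD6-AS2, are paired with non-coding (NR) records and were left out. Both libraries come from cells in standard serum medium with penicillin, streptomycin and ciprofloxacin, and the labels name no treatment or genotype. There was 1 library per group, and whether 1 culture gave both preparations is not stated. No difference given here could be checked against replicates.

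The proteasome is the protease that degrades proteins tagged with ubiquitin. Its barrel-shaped 20S core is built of outer rings of alpha subunits, which form the gate, and inner rings of beta subunits, of which PSMB5, PSMB6 and PSMB7 carry the active sites. The 19S cap binds ubiquitin chains, removes them, and unfolds and feeds in the substrate, using the PSMC ATPases of its base and the PSMD subunits of its base and lid. Interferon-gamma induces alternative catalytic subunits, which replace the standard ones in the immunoproteasome and change the peptides available for antigen presentation. Dedicated chaperones assemble core and cap, and other activators can take the place of the cap.

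Levels are RPKM, reads per kilobase of transcript and per 1000000 reads, as computed by the authors, so they can be compared between genes. The translation ratio is log2((RNC-mRNA + 0.1) / (mRNA + 0.1)), given relative to the median of the 13402 genes whose mean RPKM reached 1, called expressed genes. The number in brackets after a gene's levels is this ratio. The library totals worked out from the RPKM values were 11083302 reads for RNC-mRNA and 9640364 reads for mRNA. The bracketed range after a ratio is its 95% Clopper-Pearson counting interval on the fewest whole reads that explain both values. It covers counting error only, because PCR copies are not independent molecules and the spread between cultures was not measured. The epithelial identity of the cells was visible in both libraries, with 9 of 9 markers expressed, from 58.3 to 1693 RPKM in RNC-mRNA and from 64.0 to 1490 RPKM in mRNA. Of 6 leukocyte markers, 4 were below 1 RPKM in both libraries, among them PTPRC at 0.0332 RPKM in RNC-mRNA and 0.363 RPKM in mRNA. LYZ, at 8.33 RPKM in RNC-mRNA and 12.5 RPKM in mRNA, and CD14, at 3.78 RPKM in RNC-mRNA and 3.40 RPKM in mRNA, were the others. Of 4 fibroblast markers, all were expressed, led by COL1A1 at 26.1 RPKM in RNC-mRNA and 46.8 RPKM in mRNA. Of 2 endothelial markers, PECAM1 was expressed, at 1.58 RPKM in RNC-mRNA and 4.12 RPKM in mRNA. The part that such cells could have in the values of the proteasome genes was not tested.

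Of the 48 members, 45 passed the filter on low values. Members were mostly abundant: 38 of the 45 had a mean of at least 20 RPKM, beside 3931 of the 13402 expressed genes. In each library 13 members lay at or above the 95th percentile of expressed genes. Together the 48 genes held 0.863% of the summed RPKM in RNC-mRNA and 0.798% in mRNA. The constitutive core and cap, 31 subunits without ADRM1 and SHFM1, which carry other names, accounted for 0.758% in RNC-mRNA and 0.701% in mRNA. The order of the members was nearly the same in both libraries, with a Spearman's rho of 0.987 across the 45 genes, which share both libraries and are not independent. Across all 13402 expressed genes the rho was 0.941.

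**Figure D1:**
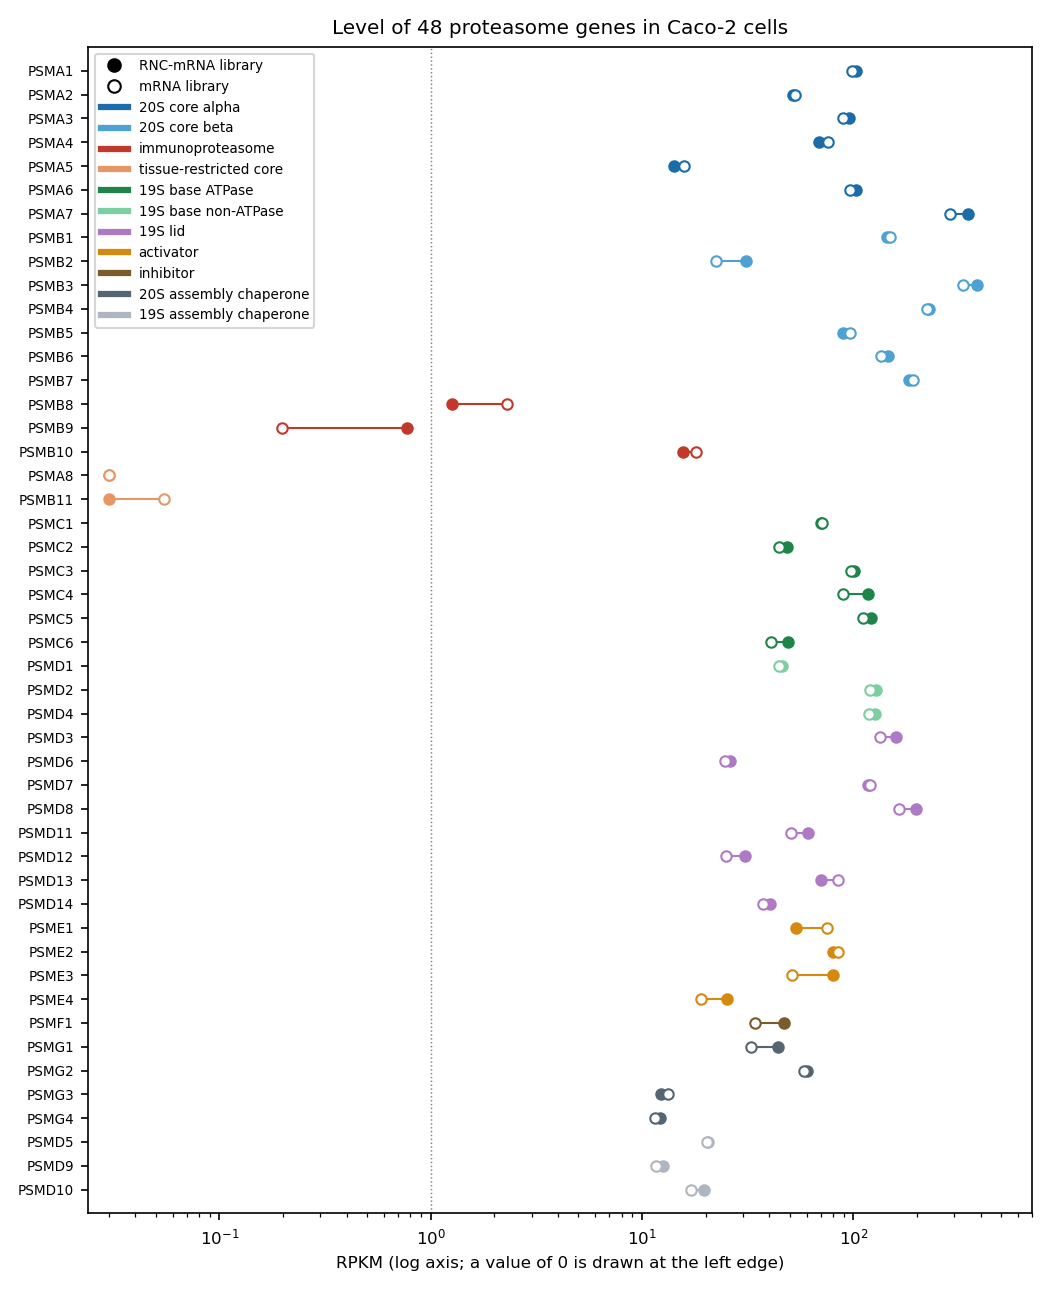
Level of each of the 48 proteasome genes in RPKM on a log axis, with filled circles for the RNC-mRNA library and open circles for the mRNA library, coloured by class. PSMB3 is highest at 384 RPKM in RNC-mRNA and 329 RPKM in mRNA, whereas PSMB8, PSMB9, PSMA8 and PSMB11 lie at the low end, the last of them at 0 RPKM in RNC-mRNA and 0.0548 RPKM in mRNA.

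No expressed member differed from the median gene by 2-fold in either direction. Of all expressed genes, 1.37% were at least 2-fold above the median gene and 11.8% at least 2-fold below. The median translation ratio of the 45 members was 0.13, with 35 above the median gene and 10 below, beside 50.0% of expressed genes above by construction and 52.6% of expressed NM records. That position was close to the one of other abundant genes. Among the 3931 genes averaging at least 20 RPKM the median ratio was 0.16, and 67.4% lay above the median gene. Of those genes, 0.763% were at least 2-fold above it and 2.06% at least 2-fold below. Among the 38 members of that level the median was 0.13, and 32 lay above the median gene. With the median of genes of at least 20 RPKM as the zero, the members' median turned to -0.028 and 17 of 45 lay above. The direction of the whole set is therefore set by the choice of zero.

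The counting interval lay above the median gene for 21 members, against a background of 29.9% of expressed genes and of 51.4% of genes of at least 20 RPKM. It lay below for 3 members, PSMB8, PSMD13 and PSME1, against 29.6% and 21.2%. Set against genes of at least 20 RPKM instead, the interval lay above for 11 members and below for 12. Above that zero it lay for 18.8% of expressed genes and 33.1% of genes of at least 20 RPKM, and below it for 39.7% and 34.1%. The 11 above were PSME3, PSMB2, PSMF1, PSMG1, PSMC4, PSME4, PSMA7, PSMD11, PSMD8, PSMC6 and PSMD3. The 12 below were PSMB8, PSME1, PSMD13, PSMB10, PSMA5, PSMA4, PSMB5, PSME2, PSMB7, PSMB1, PSMD7 and PSMC1. Within 0.5 of the median gene on the log2 scale were 43 of 45 members, or 95.6%, beside 82.0% of genes of at least 20 RPKM. The exceptions were PSMB8 and PSME3.

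**Figure D2:**
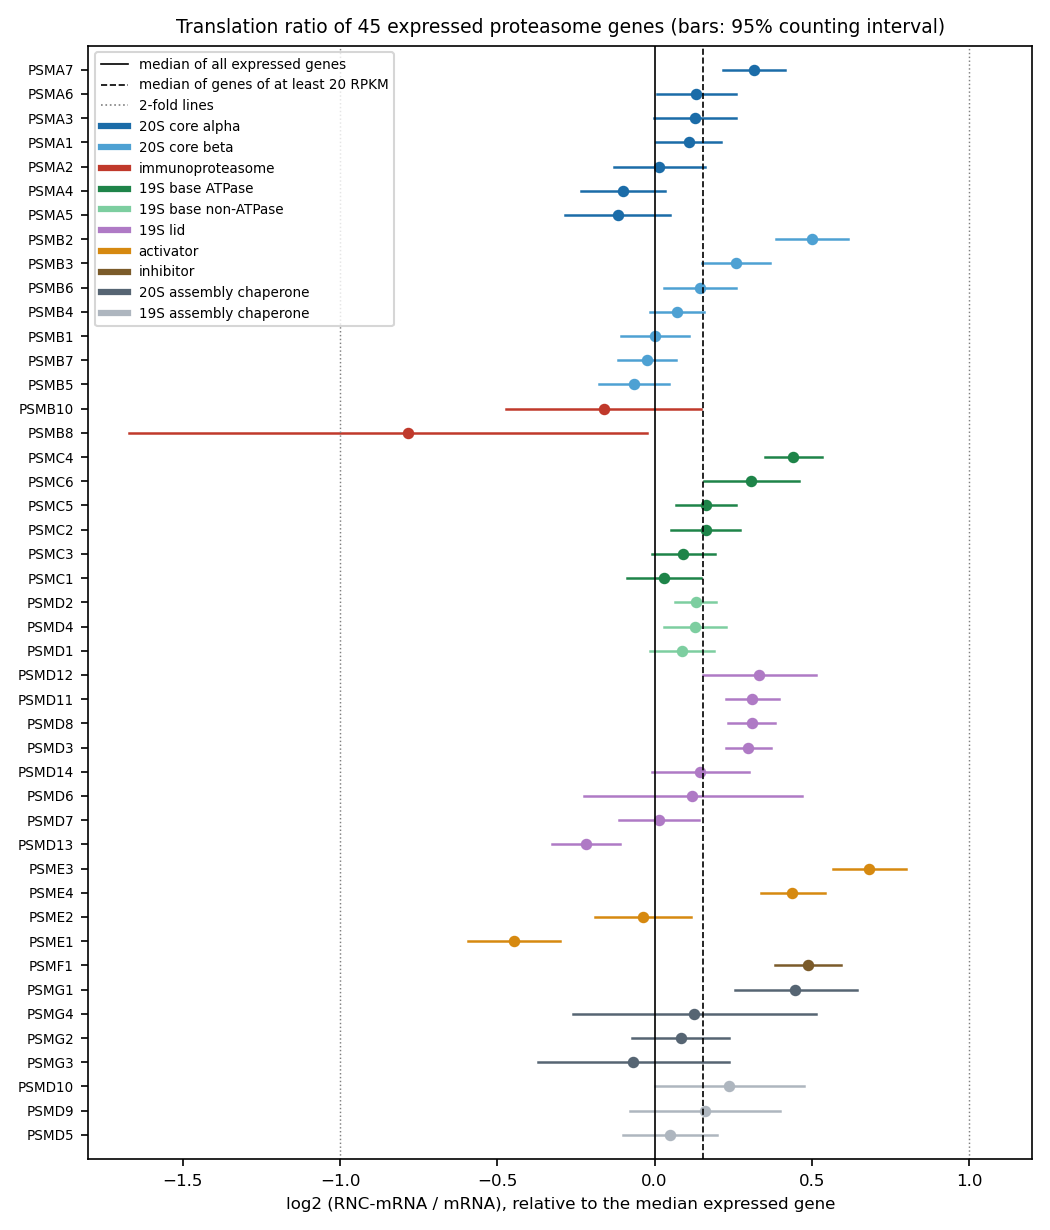
Translation ratio of the 45 expressed members, as log2 of RNC-mRNA over mRNA relative to the median expressed gene, with 95% counting intervals as bars and colours for the classes. The members run from -0.78 for PSMB8 to 0.68 for PSME3, and all points stay inside the dotted 2-fold lines.

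The 7 alpha subunits of the 20S core had a median ratio of 0.11 and levels that spanned 24.4-fold in RNC-mRNA and 18.1-fold in mRNA. PSMA7, the alpha4 ring subunit, was the most abundant and had the highest ratio of this ring, with 347 RPKM in RNC-mRNA and 286 RPKM in mRNA (0.32, interval 0.22 to 0.42). PSMA5, the alpha5 ring subunit, was the least abundant and had the lowest ratio, with 14.2 RPKM in RNC-mRNA and 15.8 RPKM in mRNA (-0.12, interval -0.28 to 0.05). Only for PSMA7, PSMA6 and PSMA1 did the interval lie above the median gene. It did so for 29.9% of expressed genes and 51.4% of genes of at least 20 RPKM. PSMA6, the alpha1 subunit, had 103 RPKM in RNC-mRNA and 96.8 RPKM in mRNA (0.13). PSMA1, the alpha6 subunit, had 103 RPKM in RNC-mRNA and 98.2 RPKM in mRNA (0.11). PSMA3, the alpha7 subunit, had 95.4 RPKM in RNC-mRNA and 89.6 RPKM in mRNA (0.13). PSMA2, the alpha2 subunit, had 52.0 RPKM in RNC-mRNA and 52.8 RPKM in mRNA (0.015). PSMA4, the alpha3 subunit, had 69.1 RPKM in RNC-mRNA and 76.1 RPKM in mRNA (-0.10). These ring positions are filled in equal number in each core, whereas the levels of PSMA5 and PSMA7 stood far apart in both libraries.

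The 7 constitutive beta subunits had a median ratio of 0.07. Over both rings the median was 0.09, and it turned to -0.065 with genes of at least 20 RPKM as the zero. Structural PSMB3, the beta3 subunit, was the most abundant of all 48 genes, with 384 RPKM in RNC-mRNA and 329 RPKM in mRNA (0.26, interval 0.15 to 0.37). PSMB2, the beta4 subunit, was the least abundant of this ring and had its highest ratio, with 31.0 RPKM in RNC-mRNA and 22.5 RPKM in mRNA (0.50, interval 0.39 to 0.62). PSMB4, the beta7 subunit, had 228 RPKM in RNC-mRNA and 222 RPKM in mRNA (0.07). PSMB1, the beta6 subunit, had 145 RPKM in RNC-mRNA and 149 RPKM in mRNA (0.0009). The catalytic subunits sat close to the median gene. PSMB7, which carries the trypsin-like site, had 183 RPKM in RNC-mRNA and 192 RPKM in mRNA (-0.02, interval -0.12 to 0.07). PSMB6, which carries the caspase-like site, had 146 RPKM in RNC-mRNA and 135 RPKM in mRNA (0.15, interval 0.03 to 0.26). PSMB5, which carries the chymotrypsin-like site bound by bortezomib, had 89.5 RPKM in RNC-mRNA and 96.2 RPKM in mRNA and the lowest ratio of this ring (-0.07, interval -0.18 to 0.05). PSMB2 and PSMA5, the core subunits of lowest level, also had the longest records, 4743 and 3826 nt as worked out from the RPKM values. RPKM divides by that length, and what a shorter transcript form would do to their levels was not tested. Over the 45 members, level and transcript length had a Spearman's rho of -0.42, and ratio and length one of 0.36. Over the 13185 expressed genes with a length worked out, ratio and length had a rho of 0.038.

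The 9 PSMC and PSMD genes of the 19S base leave out its ADRM1 subunit, given further on. All 9 lay above the median gene, beside 50.0% of expressed genes and 67.4% of genes of at least 20 RPKM. The 9 genes had a median of 0.13 that turned to -0.025 with genes of at least 20 RPKM as the zero. Their levels were more even than those of the core, spanning 2.80-fold in RNC-mRNA and 2.97-fold in mRNA. The 6 PSMC genes encode the ring of ATPases that unfolds substrates and opens the core. PSMC4 (Rpt3) led them, with 118 RPKM in RNC-mRNA and 89.0 RPKM in mRNA (0.44, interval 0.35 to 0.53). PSMC6 (Rpt4) followed with 48.9 RPKM in RNC-mRNA and 40.6 RPKM in mRNA (0.31, interval 0.16 to 0.46). PSMC5 (Rpt6) had 121 RPKM in RNC-mRNA and 111 RPKM in mRNA (0.16). PSMC2 (Rpt1) had 48.3 RPKM in RNC-mRNA and 44.3 RPKM in mRNA (0.16). PSMC3 (Rpt5) had 101 RPKM in RNC-mRNA and 97.1 RPKM in mRNA (0.09). PSMC1 (Rpt2) was lowest, with 70.5 RPKM in RNC-mRNA and 71.0 RPKM in mRNA (0.03, interval -0.09 to 0.15). PSMC1 has 13 named pseudogenes in the RefSeq gene table, the most of any member, so its share of reads is uncertain. In all, 21 of the 48 members have at least 1 named pseudogene, and the handling of reads that fit several places is not stated in the labels.

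The non-ATPase base subunits had the most alike ratios of any class, while their levels differed up to 2.80-fold in RNC-mRNA and 2.71-fold in mRNA. PSMD2 (Rpn1), the docking subunit for ubiquitin shuttles, had 128 RPKM in RNC-mRNA and 120 RPKM in mRNA (0.13, interval 0.06 to 0.20). PSMD4 (Rpn10), a ubiquitin receptor, had 126 RPKM in RNC-mRNA and 119 RPKM in mRNA (0.13, interval 0.03 to 0.23). PSMD1 (Rpn2), a scaffold, had 45.9 RPKM in RNC-mRNA and 44.4 RPKM in mRNA (0.09, interval -0.02 to 0.19). Their ratios had an SD over the 3 genes of 0.02, below the median counting SD of 0.05 for these genes.

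The 8 PSMD genes of the lid, which leave out its SHFM1 subunit given further on, had a median of 0.22. With genes of at least 20 RPKM as the zero the lid median was 0.066. PSMD12 (Rpn5), with 30.5 RPKM in RNC-mRNA and 24.9 RPKM in mRNA, had the highest ratio (0.33, interval 0.15 to 0.51). PSMD11 (Rpn6), which clamps cap to core, had 61.0 RPKM in RNC-mRNA and 50.5 RPKM in mRNA (0.31, interval 0.23 to 0.39). PSMD8 (Rpn12) had 199 RPKM in RNC-mRNA and 165 RPKM in mRNA (0.31). PSMD3 (Rpn3) had 160 RPKM in RNC-mRNA and 134 RPKM in mRNA (0.30). The intervals of these 4 genes overlapped one another and lay above the median gene. An interval above it was found for 29.9% of expressed genes and 51.4% of genes of at least 20 RPKM. The deubiquitinase PSMD14 (Rpn11), which cuts the ubiquitin chain off the substrate, had 40.4 RPKM in RNC-mRNA and 37.5 RPKM in mRNA (0.15, interval -0.01 to 0.30). Its inactive partner PSMD7 (Rpn8) had 117 RPKM in RNC-mRNA and 119 RPKM in mRNA (0.015, interval -0.11 to 0.14). PSMD6 (Rpn7) had 25.99 RPKM in RNC-mRNA and 24.6 RPKM in mRNA (0.12, interval -0.22 to 0.47). PSMD13 (Rpn9) was the only PSMD lid gene below the median gene, with 70.5 RPKM in RNC-mRNA and 84.2 RPKM in mRNA (-0.22, interval -0.33 to -0.11).

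The spread over the 31 constitutive subunits, again without ADRM1 and SHFM1, was small. The SD of their ratios was 0.16, beside 0.45 over genes of at least 20 RPKM and 0.41 over the NM records among those. Of the 31 subunits, 26 lay between the quartiles of all genes of at least 20 RPKM, from -0.08 to 0.36. The median counting SD of a single subunit was 0.06, so the subunits differed among themselves by more than counting error. Their levels spanned 27.04-fold in RNC-mRNA and 20.8-fold in mRNA. The SD of their log2 levels was 1.08 in both libraries. The subunit levels were thus no more even in the RNC-mRNA library than in the mRNA library.

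The immunoproteasome subunits were weakly expressed beside their constitutive counterparts. PSMB10 (beta2i), the most abundant, had 15.7 RPKM in RNC-mRNA and 18.04 RPKM in mRNA (-0.16, interval -0.47 to 0.15). Its level was 8.55% of that of PSMB7 in RNC-mRNA and 9.42% in mRNA. PSMB8 (beta5i) had 1.25 RPKM in RNC-mRNA and 2.29 RPKM in mRNA, on at least 22 reads in RNC-mRNA and 35 in mRNA, and the lowest ratio of all expressed members (-0.78, interval -1.67 to -0.02). Its level was 1.40% of that of PSMB5 in RNC-mRNA and 2.38% in mRNA. PSMB9 (beta1i) had 0.773 RPKM in RNC-mRNA and 0.198 RPKM in mRNA, on at least 9 reads in RNC-mRNA and 2 in mRNA, and did not pass the filter. Its counting interval ran from -0.27 to 5.26, so no direction could be told at this depth. The level of PSMB9 was 0.530% of that of PSMB6 in RNC-mRNA and 0.146% in mRNA.

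The core subunits of restricted tissues were near or at 0. PSMA8, an alpha4 variant of germ cells, was listed at 0 in both libraries, where a count of 0 allows up to 0.150 RPKM in RNC-mRNA and 0.173 RPKM in mRNA. PSMB11, the thymic beta5t subunit, was listed at 0 in RNC-mRNA, which allows up to 0.143 RPKM, and had 0.0548 RPKM in mRNA, which can be 1 read.

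The activators and the inhibitor had a median of 0.44 and the largest SD of ratios of the classes, 0.46 over the 5 genes. The SD over the 2 expressed immunoproteasome genes was close to it, at 0.44. PSME3 (PA28 gamma), the nuclear activator that acts without ubiquitin, had 80.3 RPKM in RNC-mRNA and 51.4 RPKM in mRNA, the highest ratio of all expressed members (0.68, interval 0.57 to 0.80). It lay at percentile 95.2 of all expressed genes. PSME4 (PA200), a large activator known from chromatin and germ cells, had 25.2 RPKM in RNC-mRNA and 19.1 RPKM in mRNA (0.44, interval 0.34 to 0.54). PSMF1 (PI31), named as an inhibitor of the core, had 46.9 RPKM in RNC-mRNA and 34.3 RPKM in mRNA (0.49, interval 0.38 to 0.59). The interferon-inducible PA28 genes had ratios below the median gene, PSME2 within counting error of it. PSME1 (PA28 alpha) had 53.4 RPKM in RNC-mRNA and 74.8 RPKM in mRNA (-0.45, interval -0.59 to -0.30). PSME2 (PA28 beta) had 80.2 RPKM in RNC-mRNA and 84.6 RPKM in mRNA (-0.04, interval -0.19 to 0.11). PSME1 and PSME2 form one heteroheptameric ring, and their ratios differed by -0.41 on the log2 scale (PSME1 minus PSME2), with counting intervals that did not overlap. The level of PSME1 was 66.6% of that of PSME2 in RNC-mRNA and 88.5% in mRNA. PSME2 has 6 named pseudogenes and PSME1 has none by that naming, so the share of PSME2 reads is the less certain. Unlike PSMB8 and PSMB9, both PA28 genes were as abundant as many constitutive subunits.

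The upstream sequences of PSME3 and PSME1, the activators of highest and lowest ratio, and of the interferon-inducible PSME2 and PSMB10 are shown to set the extremes of the activator class beside genes of the interferon response. Each is the 250 bases before the RefSeq transcript start, 5′ to 3′ on the gene's strand, on GRCh38.p14. The windows are chr17:42833147-42833396 (plus strand) for PSME3, chr14:24135944-24136193 (plus strand) for PSME1, chr14:24146611-24146860 (minus strand) for PSME2 and chr16:67936851-67937100 (minus strand) for PSMB10. Capitals mark matches on either strand to CCGGAA (ETS-type), to TTCNNNGAA (STAT-type) and to the interferon-response-type motif, a pair of GAAA separated by NN, with N any base.
PSME3: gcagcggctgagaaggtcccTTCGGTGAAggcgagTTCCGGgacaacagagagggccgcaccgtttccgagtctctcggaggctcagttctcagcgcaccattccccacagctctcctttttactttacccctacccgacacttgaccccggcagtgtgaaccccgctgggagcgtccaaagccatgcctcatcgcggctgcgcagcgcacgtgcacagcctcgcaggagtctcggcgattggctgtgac
PSME1: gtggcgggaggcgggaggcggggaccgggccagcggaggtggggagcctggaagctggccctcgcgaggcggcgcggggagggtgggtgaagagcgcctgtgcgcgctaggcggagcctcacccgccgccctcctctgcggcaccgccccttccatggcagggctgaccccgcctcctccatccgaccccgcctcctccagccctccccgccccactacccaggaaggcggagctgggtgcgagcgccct
PSME2: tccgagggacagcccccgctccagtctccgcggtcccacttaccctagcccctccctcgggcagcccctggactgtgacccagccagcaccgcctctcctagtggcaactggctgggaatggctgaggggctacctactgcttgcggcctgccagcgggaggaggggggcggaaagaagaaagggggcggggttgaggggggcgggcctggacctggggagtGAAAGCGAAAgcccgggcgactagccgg
PSMB10: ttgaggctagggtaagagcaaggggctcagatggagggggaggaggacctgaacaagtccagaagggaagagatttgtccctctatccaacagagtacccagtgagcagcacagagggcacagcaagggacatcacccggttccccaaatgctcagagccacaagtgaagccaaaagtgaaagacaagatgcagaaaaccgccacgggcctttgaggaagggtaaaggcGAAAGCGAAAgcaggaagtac
PSME2 and PSMB10 each hold an interferon-response-type match, beginning 28 and 21 bases before the start, and both matches have the same 10 letters. The windows of the other immunoproteasome genes, PSMB8 and PSMB9, were searched too and hold no interferon-response-type match. PSME3 holds a STAT-type match 230 bases and an ETS-type match 215 bases before the start, and in PSME1 these letters do not occur in the window.

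Across the 42 members with a promoter record, the motif counts were set beside those of 27305 genes with a record, 1 window per gene and both strands searched. A window counted once per motif, also where matches of different motifs overlapped. CCGGAA was present in 16 of 42 members, or 38.1%, and in 14.8% of all genes. The GC box GGGCGG was present in 26 of 42, or 61.9%, and in 42.3% of all genes. TGANNNNGC, an antioxidant-response-type core, was present in 23 of 42, or 54.8%, and in 35.4% of all genes. CCAAT was present in 18 of 42, or 42.9%, beside 33.0%, and TATAAA in 5 of 42, or 11.9%, beside 11.1%. The interferon-response-type motif was present in PSMA4, PSMB4, PSMB10, PSME2 and PSMG4, or 11.9%, beside 3.07%. TTCNNNGAA was present in 5 of 42, or 11.9%, beside 6.78%. All genes include weakly expressed and non-coding ones, and a match is a description of letters and not a bound site.

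The 7 assembly chaperones had a lower median level than the constitutive subunits, although PSMG2 and PSMG1 were above PSMB2 and PSMA5. The chaperones had a median of 19.6 RPKM in RNC-mRNA and 17.1 RPKM in mRNA. The median of the constitutive subunits was 101 RPKM in RNC-mRNA and 96.2 RPKM in mRNA. The median ratio of the chaperones was 0.12, with 6 of 7 above the median gene, beside 50.0% of expressed genes. That median turned to -0.031 with genes of at least 20 RPKM as the zero. PSMG1 (PAC1) had 43.8 RPKM in RNC-mRNA and 32.9 RPKM in mRNA and the highest ratio (0.45, interval 0.25 to 0.64). Its partner PSMG2 (PAC2), with which it assembles the alpha ring, had 60.4 RPKM in RNC-mRNA and 58.6 RPKM in mRNA (0.08, interval -0.07 to 0.24). PSMG3 (PAC3) had 12.3 RPKM in RNC-mRNA and 13.2 RPKM in mRNA and the lowest ratio (-0.07, interval -0.37 to 0.24). Its partner PSMG4 (PAC4) had 12.2 RPKM in RNC-mRNA and 11.5 RPKM in mRNA (0.12, interval -0.26 to 0.51). The counting intervals of the cap base chaperones overlapped. PSMD10 (gankyrin, also known as an oncoprotein) had 19.6 RPKM in RNC-mRNA and 17.1 RPKM in mRNA (0.24). PSMD9 (p27) had 12.6 RPKM in RNC-mRNA and 11.6 RPKM in mRNA (0.16). PSMD5 (S5b) had 20.5 RPKM in RNC-mRNA and 20.4 RPKM in mRNA (0.05). The antisense record PSMG3-AS1, which neighbours PSMG3, had 0.885 RPKM in RNC-mRNA and 0.839 RPKM in mRNA. The labels name no strand-preserving step, so reads of overlapping antisense records cannot be told apart.

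**Figure D3:**
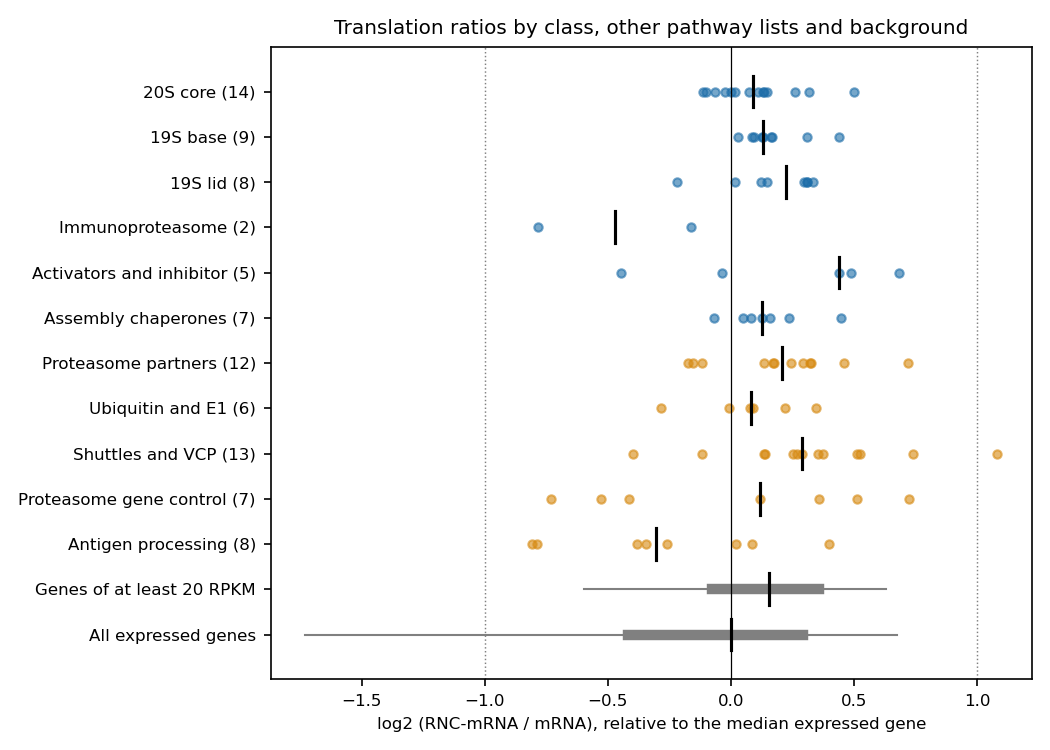
Translation ratios by class of proteasome genes (blue points) and for 5 lists of other pathway genes (orange points), with black ticks at the medians and the number of genes in brackets. Grey bars show the interquartile range and grey lines the 5th to 95th percentile of all expressed genes and of genes of at least 20 RPKM. The core, base, lid and chaperone medians run from 0.09 to 0.22 and lie near the 0.16 of genes of at least 20 RPKM.

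Genes that work with the proteasome but have other names were described in 5 lists. Beside the counts of each list, 50.0% of expressed genes lay above the median gene by construction. The share was 52.6% of expressed NM records and 67.4% of genes of at least 20 RPKM. Of 12 proteasome partners, all expressed, 9 lay above the median gene (median 0.21), with no gene past 2-fold. The ubiquitin receptor of the base ADRM1 (Rpn13) had 165 RPKM in RNC-mRNA and 150 RPKM in mRNA (0.17). The lid subunit SHFM1 (SEM1) had 111 RPKM in RNC-mRNA and 129 RPKM in mRNA and the lowest ratio (-0.17, interval -0.34 to -0.01). The cap deubiquitinase UCHL5 had the highest, with 4.52 RPKM in RNC-mRNA and 2.78 RPKM in mRNA (0.72, interval 0.43 to 1.05). POMP, which matures the core together with the PSMG proteins, had 54.0 RPKM in RNC-mRNA and 61.8 RPKM in mRNA (-0.16). Of 6 ubiquitin and E1 genes, 4 lay above the median gene (median 0.08). The polyubiquitin gene UBB was highest with 1292 RPKM in RNC-mRNA and 1044 RPKM in mRNA (0.35). RPS27A, which encodes a ubiquitin fused to a ribosomal protein, was lowest with 323 RPKM in RNC-mRNA and 405 RPKM in mRNA (-0.29).

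Of 13 genes for ubiquitin shuttles and the VCP segregase, 11 lay above the median gene (median 0.29), beside 67.4% of genes of at least 20 RPKM. DDI2, the protease that activates NFE2L1, was the only gene of the 5 lists at least 2-fold from the median gene, with 5.69 RPKM in RNC-mRNA and 2.71 RPKM in mRNA (1.08, interval 0.70 to 1.53). Its ratio was under 2-fold with a pseudocount of 1 RPKM (0.88) and with genes of at least 20 RPKM as the zero (0.93). The shuttle RAD23B had 161 RPKM in RNC-mRNA and 99.1 RPKM in mRNA (0.74, interval 0.69 to 0.80). VCP had 121 RPKM in RNC-mRNA and 113 RPKM in mRNA (0.14). UBXN1, a VCP cofactor, was lowest with 54.5 RPKM in RNC-mRNA and 73.8 RPKM in mRNA (-0.40). Of 7 genes that control proteasome gene transcription, 4 lay above the median gene and 3 below. NFE2L1 (Nrf1), which drives proteasome genes when the proteasome is impaired, had 96.4 RPKM in RNC-mRNA and 91.2 RPKM in mRNA (0.12). NFE2L2 (Nrf2) was highest with 44.6 RPKM in RNC-mRNA and 27.7 RPKM in mRNA (0.72). MAFF, a small MAF partner, was lowest with 2.31 RPKM in RNC-mRNA and 3.998 RPKM in mRNA (-0.73).

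Of 9 antigen processing genes, 8 were expressed and 5 of these lay below the median gene (median -0.30). B2M, the light chain of class I molecules, had 143 RPKM in RNC-mRNA and 139 RPKM in mRNA (0.09). TAPBP, which loads peptides, had 32.5 RPKM in RNC-mRNA and 42.4 RPKM in mRNA (-0.35). IRF1, a transcription factor that induces immunoproteasome genes, was lowest with 5.86 RPKM in RNC-mRNA and 10.6 RPKM in mRNA (-0.81, interval -1.06 to -0.58). TAP1, the peptide transporter subunit that neighbours PSMB9, had 1.31 RPKM in RNC-mRNA and 1.79 RPKM in mRNA, at a low level like PSMB8 and PSMB9.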

How the data were processed

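Poly(A) RNA of Caco-2 cells was sequenced in 2 libraries, RNC-mRNA and mRNA. The deposited table holds 1 value per library and RefSeq record, which the title the authors gave the table calls RPKM, with hg19 as the build that the submitters' processing notes name. No source used here gives the mapper or counter. Per the labels' protocols, libraries were made by random priming and amplified by PCR.

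Library totals were found as the whole numbers at which most genes of known GENCODE 29 transcript length held whole reads, within the rounding of 7 printed digits: 2346 genes for RNC-mRNA (1105 at the next best total) and 2594 genes for mRNA (1219). The next best totals, 16624953 for RNC-mRNA and 14460546 for mRNA, stand in a simple ratio to the chosen ones. Many genes stay whole there by arithmetic, so the gap to the next best total is no independent check. Reads per gene were the fewest at a whole transcript length, with a relative error of 2e-07 beyond rounding, found for 98.4% of expressed genes. They sum to 86.6% of the total in RNC-mRNA and 86.0% in mRNA, with medians per expressed gene of 286 reads in RNC-mRNA and 262 in mRNA. Steps were tested on simulated data. Python 3.11.15, numpy 2.4.6, pandas 2.3.3 and scipy 1.17.1 were used.

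With 1 library per group no p-value, SD or standard error between samples exists, and a 2-fold distance from the median gene stood in for a test. An SD over genes describes genes only. All members may be named, and from other lists the 2 most abundant, the extremes and any gene past 2-fold, with POMP, TAP1 and single markers named besides for their role after their values were seen. Some genes that this rule would name are not reported here. The members and lists were chosen with earlier results of these data known. RefSeq promoter windows were matched by symbol for 42 of 48 members, and the windows carry GRCh38.p14 coordinates because the table holds none.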

Additional observations from a re-analysis of the deposited data

How the results depend on the processing

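Several settings left all class medians within the counting interval of their middle member, and the counts within 1.5 times. For a class of even size, the range joined the intervals of its middle members. These settings were RPKM as deposited or scaled to a summed RPKM of 1000000, and NM records setting the median. A pseudocount of 0.01 and a minimum of 10 reads in place of the RPKM filter were the others. With genes of at least 20 RPKM as the zero, the medians became -0.028 for all members, -0.0655 for the core and -0.025 for the base. The median of activators and inhibitor became 0.28. The medians of the lid, 0.066, and of the chaperones, -0.031, stayed within the range given above. That zero lowers the ratio of every gene by the same 0.155. Whether a median left its range thus depended on the width of the counting intervals, and the chaperone median turned negative all the same. At that zero 17 members lay above, with the interval above it for 11 and below it for 12. There 115 expressed genes were at least 2-fold above. Upper-quartile scaling gave 0.061 for the base. With a mean of at least 5 RPKM the base median was 0.048, and 62 and 544 expressed genes were at least 2-fold above and below. With no filter the medians were 0.23 for all members and 0.23 for the base, 599 genes were at least 2-fold above and 3040 below, and 1 member was past 2-fold, PSMB9, on at least 9 reads in RNC-mRNA and 2 in mRNA. A pseudocount of 1 gave 102 genes above and 1046 below. A change of the genes that set the zero or pass the filter moves the ratio of every gene by the same amount. Why genes of different levels have different median ratios was not tested. Reads at the transcript length nearest a reference, chosen after seeing the data, left the interval counts at 21 and 3. No paired analysis was possible because each group has 1 library. Depth limits PSMB8, PSMB9, PSMA8 and PSMB11, which have the lowest levels of the members.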
